A study of Mus musculus with 4 samples.

Results

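Adipocyte lineage genes were examined as 10 genes given by symbol: the transcription factor genes Zfp423, Cebpb, Cebpd, Cebpa and Pparg and the lipid-handling and fat-cell genes Lpl, Cd36, Fabp4, Plin1 and Adipoq. All 10 were listed among the 23107 genes of both deposited tables used here, and 8 of them had enough signal to enter the test. The cells were tdTomato-positive dental follicle cells, from the mesenchyme that encloses an unerupted tooth, sorted from mouse mandibular molars at postnatal day 8 after tamoxifen at postnatal day 3. The reporter marks cells of the PTHrP-positive lineage. In the conditional knockouts (cKO, genotype Ptch1(-/-), 2 libraries) both copies of Ptch1 were targeted, and in the conditional heterozygotes (cHet, genotype Ptch1(+/-), 2 libraries) 1 copy was. The controls therefore carry a targeted Ptch1 allele as well, and libraries of unmutated cells were not analysed here. The labels name neither the Cre driver, nor the sex of the mice, nor the number of animals behind a library, so the spread between libraries may be technical in part. Libraries are named by the columns of the deposited tables, cKO_0, cKO_1, cHet_0 and cHet_1.

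Mesenchymal progenitors of bone, bone marrow and other connective tissues can give rise to adipocytes as an alternative to osteoblasts. In the usual scheme, worked out mostly in mouse cell lines, Zfp423 marks commitment to the preadipocyte state, C/EBP beta and C/EBP delta are induced early, and they switch on C/EBP alpha and PPAR gamma, which then maintain each other and activate lipid genes such as Fabp4, Plin1, Adipoq, Lpl and Cd36. Hedgehog signalling, which Ptch1 holds off in the absence of ligand, is known to restrain adipogenesis in cultured mesenchymal cells. Several of these genes also serve outside fat: C/EBP beta and delta are stress- and cytokine-responsive, and Fabp4 and Cd36 are expressed by capillary endothelium and macrophages.

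Values are the authors' scaled counts, in which each library's gene counts are divided by a single factor. The scaled totals ranged from 69361760 to 71228342, and if the commonest smallest value in a library is taken as 1 read, the libraries hold about 62300000 to 85700000 reads. In cHet_1, 10 genes were listed under 10 although each of the other 3 libraries had at least 1000, against 0 such genes in each of the other libraries. Zfp423 was one of these 10 genes. Genes listed at 0 numbered 8753 in cHet_1, 7230 in cHet_0, 8152 in cKO_0 and 8118 in cKO_1. In log2(scaled count + 3), cHet_1 correlated at 0.742 to 0.791 with the other libraries, which correlated at 0.811 to 0.893 among themselves. All 14 dental follicle and ligament markers were at 1000 or more in all 4 libraries, with a summed level of 422089 and 415272 in cKO and 584734 and 794294 in cHet. Enamel and epithelial genes were present too, with a summed level of 975123 and 2784378 in cKO and 587130 and 1509480 in cHet. Ptch1, the targeted gene, was listed at 22420 and 23341 in cKO and at 12867 and 5438 in cHet. Hhip, a hedgehog target, was listed at 175453 and 160516 in cKO and at 62357 and 60651 in cHet. A value per gene does not show whether an exon of Ptch1 was removed.

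The 10 genes differed widely in level. Per length, in FPKM (the authors' second measure, fragments scaled to transcript length and library size), Cebpd and Cebpb stood highest in every library, at 65.3 to 109 and 49.6 to 184 FPKM. Lpl was at 4.16 to 16.0 FPKM and Cebpa at 3.98 to 8.88 FPKM. The order below Cebpd and Cebpb differed between libraries: Pparg, Fabp4 and Zfp423 lay above Cebpa in cHet_0, and Fabp4 lay above Lpl in cKO_1. Zfp423, Fabp4, Pparg and Cd36 reached at most 4.29, 5.20, 5.32 and 1.86 FPKM and each was near 0 in at least 1 library. Plin1 and Adipoq did not exceed 0.126 and 0.657 FPKM. In scaled counts, 4 of the 10 genes were at 100 or more in every library, namely Cebpa, Cebpb, Cebpd and Lpl.

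**Figure D1:**
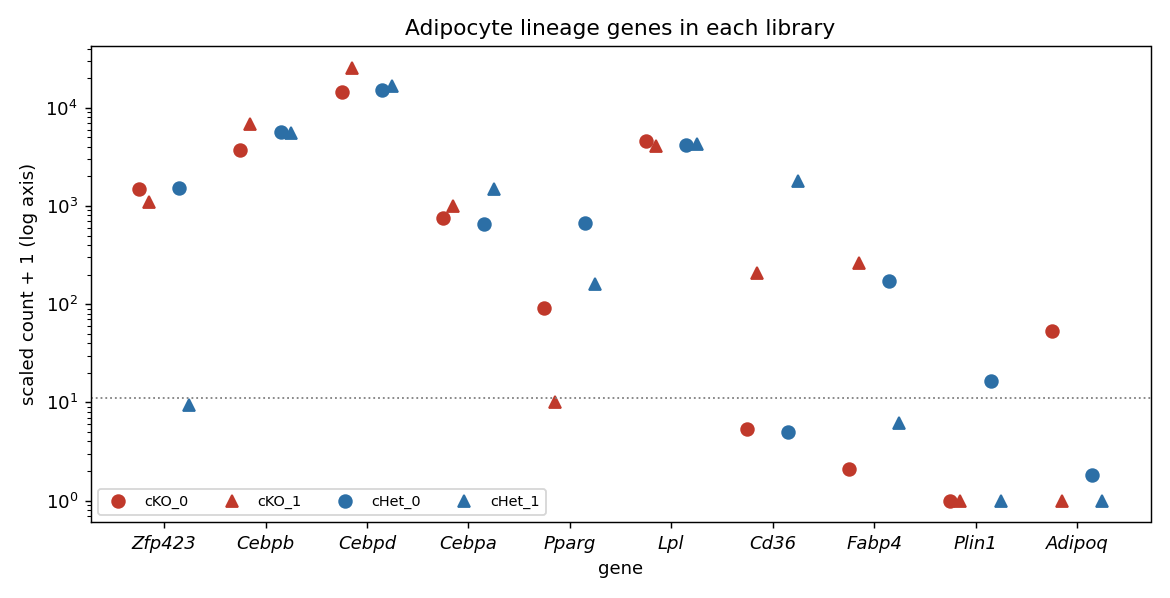
Scaled counts of the 10 adipocyte lineage genes, plus 1, on a log axis, with cKO libraries in red and cHet libraries in blue (circles for number 0, triangles for number 1); the dotted line marks a scaled count of 10. Cebpd, Cebpb, Lpl and Cebpa lay close together in all 4 libraries, Pparg lay lower in both cKO libraries, and Plin1 and Adipoq lay above the dotted line in 1 library each, cHet_0 for Plin1 and cKO_0 for Adipoq.

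None of the 8 genes tested passed the threshold of 0.05 on the Benjamini-Hochberg adjusted p of limma over the 14297 genes tested, and neither did any other gene (0%, lowest adjusted p 0.913). At an unadjusted limma p under 0.05, 0 of the 8 were called, against 1.54% of all genes higher and 1.49% lower in cKO. Of the 10 genes, 1 (Pparg) had both cKO values below both cHet values and 0 had both above, where 14.2% of all genes tested lay lower and 18% higher. Among the 8, 3 had higher and 5 lower values in cKO, the median log2 fold change being -0.16, against 8047 higher and 6250 lower and a median of 0.12 over all genes tested. Fold changes are cKO minus cHet and were taken as log2(scaled count + 3), a scale that understates the change of low genes.

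Zfp423 (chromosome 8, 87661810 to 87959595, minus strand, mm10), the zinc finger factor of preadipocyte commitment, was listed at 1503 and 1087 in cKO and at 1509 and 8.37 in cHet. Both cKO values and cHet_0 lay close together, and cHet_1 stood apart, so that the groups overlapped. The log2 fold change of 3.29 (SE 2.26, 95% interval -1.92 to 8.50, limma adjusted p = 0.913) rests on that library: it was -0.24 without cHet_1, and without cHet_0 it was 6.82 and called (limma adjusted p = 0.0195), in a comparison that then called 7.42% of all genes higher. Its range over the 4 libraries was 7.06 log2 units, and 0.993% of the 8963 genes that averaged 1000 or more in scaled counts had a range at least as large. Zfp423 was among the genes described above that were under 10 in cHet_1 and at 1000 or more in every other library. Whether the low value is a property of the cells or of that library was not tested.

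The 3 C/EBP genes are leucine zipper transcription factors. Cebpd (chromosome 16, 15887286 to 15891031, plus strand), an early factor, was listed at 14631 and 25643 in cKO and at 15073 and 16490 in cHet. The cKO_1 value was the highest and the other 3 lay together, and the groups overlapped. Its log2 fold change was 0.30 (SE 0.31, 95% interval -0.41 to 1.01, limma adjusted p = 0.920), and -0.11 without cKO_1.

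Cebpb (chromosome 2, 167688915 to 167690418, plus strand), its early partner, was listed at 3749 and 6828 in cKO and at 5621 and 5490 in cHet. The cKO values lay on either side of both cHet values. The log2 fold change was -0.13 (SE 0.39, 95% interval -1.03 to 0.76, limma adjusted p = 0.980), and 0.30 without cKO_0. As with Cebpd, the highest value was in cKO_1. Immediate early and acute-phase genes, a list of 17 that includes Fos, Jun and Egr1, were also highest there, with a summed level of 1048113 and 1705755 in cKO and 998258 and 1013167 in cHet. Saa3 in that list was at 0 in all 4 libraries. The part of that difference in the Cebpb and Cebpd values was not tested.

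Cebpa (chromosome 7, 35119293 to 35121928, plus strand), the later factor that works with PPAR gamma, was listed at 752 and 993 in cKO and at 650 and 1476 in cHet. Both cKO values lay between the cHet values. For Cebpa the log2 fold change was -0.18 (SE 0.95, 95% interval -2.38 to 2.01, limma adjusted p = 0.991), and 0.41 without cHet_1. Its range over the libraries, 1.18 log2 units, was small for its level: 89.3% of the 3889 genes averaging 100 to under 1000 had a range at least as large. In the mm10 annotation each C/EBP gene overlaps an exon of a gene on the opposite strand (Gm45091 for Cebpa, Tmem189 for Cebpb and Spidr for Cebpd), and the sources used here do not say whether reads were counted by strand.

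Pparg (chromosome 6, 115360951 to 115490399, plus strand) encodes PPAR gamma, the nuclear receptor required for fat-cell differentiation. It is transcribed from more than 1 start, and the reads of all of them are merged in the gene-level value. The RefSeq promoter table (GRCm38.p6, the assembly of mm10) holds 3 starts for it. The 250 bases before each are printed because Pparg was the only one of the 10 genes whose groups did not overlap in scaled counts. Capitals mark matches, on either strand, to a C/EBP-type sequence TTNNGNAA or to the TATA-type sequence TATAAA.
Upstream start, chr6:115360894-115361143, plus strand: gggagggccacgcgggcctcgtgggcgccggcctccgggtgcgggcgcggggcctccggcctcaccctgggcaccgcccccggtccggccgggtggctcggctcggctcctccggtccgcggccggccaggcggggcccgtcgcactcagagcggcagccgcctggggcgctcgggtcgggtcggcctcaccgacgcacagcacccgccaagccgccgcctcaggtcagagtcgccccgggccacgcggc
Middle start, chr6:115362099-115362348, plus strand: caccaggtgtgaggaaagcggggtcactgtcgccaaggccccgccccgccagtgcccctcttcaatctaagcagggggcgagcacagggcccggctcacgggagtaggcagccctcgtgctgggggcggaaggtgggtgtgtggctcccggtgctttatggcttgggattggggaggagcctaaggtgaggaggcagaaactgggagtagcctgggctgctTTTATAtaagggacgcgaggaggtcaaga
Downstream start, chr6:115421816-115422065, plus strand: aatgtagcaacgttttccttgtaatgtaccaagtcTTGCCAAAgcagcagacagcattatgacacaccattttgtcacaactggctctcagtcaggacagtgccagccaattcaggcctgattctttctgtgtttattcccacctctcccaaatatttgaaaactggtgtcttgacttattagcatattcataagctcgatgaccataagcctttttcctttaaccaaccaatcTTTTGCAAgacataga
The upstream window holds neither sequence and has a GC content of 82.4%. The middle window holds 1 TATAAA match, beginning 29 bases before the start, and the downstream window, with 40.8% GC, holds 2 TTNNGNAA matches. In the table as a whole, 36.8% of 32851 such windows hold TTNNGNAA and 12.4% hold TATAAA. Of the 10 genes, 7 have windows in the table, 10 windows in all. None of these 10 windows holds the GLI-type sequence GACCACCCA, which 0.225% of all windows hold on either strand.

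Pparg was listed at 89.4 and 9.08 in cKO and at 676 and 158 in cHet. Both cKO values lay below both cHet values, with cKO_1 the lowest. The means were 49.2 ± 56.8 in cKO and 417 ± 366 in cHet (SD, n = 2 each). The log2 fold change was -3.31 (SE 2.33, 95% interval -8.68 to 2.07, limma adjusted p = 0.913). The gap between libraries of the same genotype was almost as large in cKO, at 2.94 log2 units, and smaller in cHet, at 2.08. The log2 fold change was -1.84 without cKO_1 and -4.78 without cKO_0. In FPKM the groups overlapped, at 0.736 and 0.0419 in cKO and 5.32 and 0.712 in cHet, and the difference on the log2(FPKM + 1) scale was -1.29 (SE 0.81). A range over the libraries as large as that of Pparg, 5.81 log2 units, was found for 39.4% of the 3889 genes of its level class.

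Among the 8963 genes averaging 1000 or more, the 5 whose pattern over the 4 libraries lay nearest to that of Pparg were Ism1, Raph1, Nebl, Ecel1 and Smpd3. Likeness was measured as the Euclidean distance between centred log2 values, and their distances ran from 1.85 to 2.39 log2 units. Ism1, the nearest, was listed at 1695 and 309 in cKO and at 3275 and 2945 in cHet. With 4 libraries many genes share a pattern, and the distances describe these libraries only.

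Lpl (chromosome 8, 68880491 to 68907448, plus strand) encodes lipoprotein lipase, which releases fatty acids from circulating triglyceride. It was listed at 4611 and 4098 in cKO and at 4215 and 4290 in cHet. All 4 values lay within 0.17 log2 units, and the cKO values lay on either side of the cHet values. Between genotypes the log2 fold change was 0.03 (SE 0.36, 95% interval -0.79 to 0.85, limma adjusted p = 0.995). Only 0.971% of the genes averaging 1000 or more had a smaller range, the median range there being 0.999 log2 units. The SE is wider than the spread of these values because limma draws each gene's variance toward that of genes of like abundance.

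Cd36 (chromosome 5, 17781690 to 17888801, minus strand), a fatty acid uptake receptor, was listed at 4.31 and 204 in cKO and at 4.05 and 1776 in cHet. It was near 0 in the libraries numbered 0 and present in those numbered 1, in both genotypes. The log2 fold change of -1.52 (SE 3.26, 95% interval -9.04 to 5.99, limma adjusted p = 0.969) was 2.47 without cHet_1 and -5.51 without cHet_0. A range as large as its 7.98 log2 units was found for 1.44% of the genes of its level class.

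Fabp4 (chromosome 3, 10204088 to 10208576, minus strand), a fatty acid binding protein of adipocytes, was listed at 1.08 and 260 in cKO and at 169 and 5.23 in cHet. Each genotype had 1 library over 100 and 1 at 5.23 or below. The log2 fold change was -0.20 (SE 3.02, 95% interval -7.15 to 6.74, limma adjusted p = 0.996), and between libraries of the same number it was -5.40 (number 0) and 4.997 (number 1).

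Endothelial and leukocyte markers were uneven over the same libraries. The 15 endothelial markers summed to 9623 and 29251 in cKO and to 7778 and 12070 in cHet, and none of them was at 0 in all 4 libraries. The 15 macrophage and leukocyte markers summed to 1870 and 17224 in cKO and to 2917 and 9728 in cHet, again with none at 0 throughout. Of 14 endothelial markers tested, 13 had higher and 1 lower values in cKO (92.9% higher, against 56.3% of all genes tested). Their median log2 fold change was 2.34, and 0 passed. Both cKO values lay above both cHet values for 6 and below for 0, where 18% of all genes tested lay higher and 14.2% lower. The leukocyte list gave 9 higher and 6 lower values, and 0 passed. In that list, 2 had both cKO values above both cHet values and 1 had both below, against the same 18% and 14.2%. All 8 Schwann cell markers tested also had higher values in cKO. So did 8 of 9 smooth muscle and pericyte markers and 14 of 15 immediate early and acute-phase genes. Dental epithelium markers gave 6 higher and 6 lower values, and dental follicle and ligament markers 5 higher and 9 lower. Eng, an endothelial co-receptor and the most abundant of its list, was at 4428 and 5405 in cKO and at 3692 and 4283 in cHet. Lyz2, the lysozyme of macrophages and the most abundant of its list, was at 853 and 6546 in cKO and at 531 and 4385 in cHet. Cd36 and Fabp4 were both higher in cKO_1 than in cKO_0 and differed only in the order of the cHet libraries. A marker higher in cKO_1 therefore has the order of Cd36 or of Fabp4 by construction. The share of each order over all genes was not counted, so the counts below only describe these markers. Of the 15 endothelial markers, 14 were higher in cKO_1 than in cKO_0; 8 had the order of Cd36, higher in the library numbered 1 in both genotypes, and 6 had the order of Fabp4, higher in cKO_1 than in cKO_0 and lower in cHet_1 than in cHet_0. Of the 15 macrophage and leukocyte markers, all 15 were higher in cKO_1 than in cKO_0; 8 had the order of Cd36 and 7 that of Fabp4. The lysosomal macrophage gene Cd68 had the order of Cd36, at 91.6 and 807 in cKO and 139 and 1771 in cHet. Pecam1, the endothelial adhesion gene, had it too, at 300 and 1278 in cKO and at 0 and 5.23 in cHet, so that it was nearly at 0 in cHet_1, where Cd36 was highest. The complement gene C1qc of macrophages had the order of Fabp4, at 5.39 and 788 in cKO and at 141 and 5.23 in cHet. Vwf, the endothelial von Willebrand factor gene, did as well, at 3.23 and 2122 in cKO and at 74.5 and 7.33 in cHet. Ptprc, the pan-leukocyte gene, was at 62.5 and 76.0 in cKO and at 0.81 and 0 in cHet. Adgre1, of the same list, went the other way, at 0 and 2.27 in cKO and at 36.4 and 203 in cHet. The 9 smooth muscle and pericyte markers summed to 87576 and 104100 in cKO and to 85166 and 79449 in cHet. The part of these cells in the Cd36 and Fabp4 values was not tested, and fewer cells of a type cannot be told apart from less RNA per cell in sorted bulk samples.

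**Figure D2:**
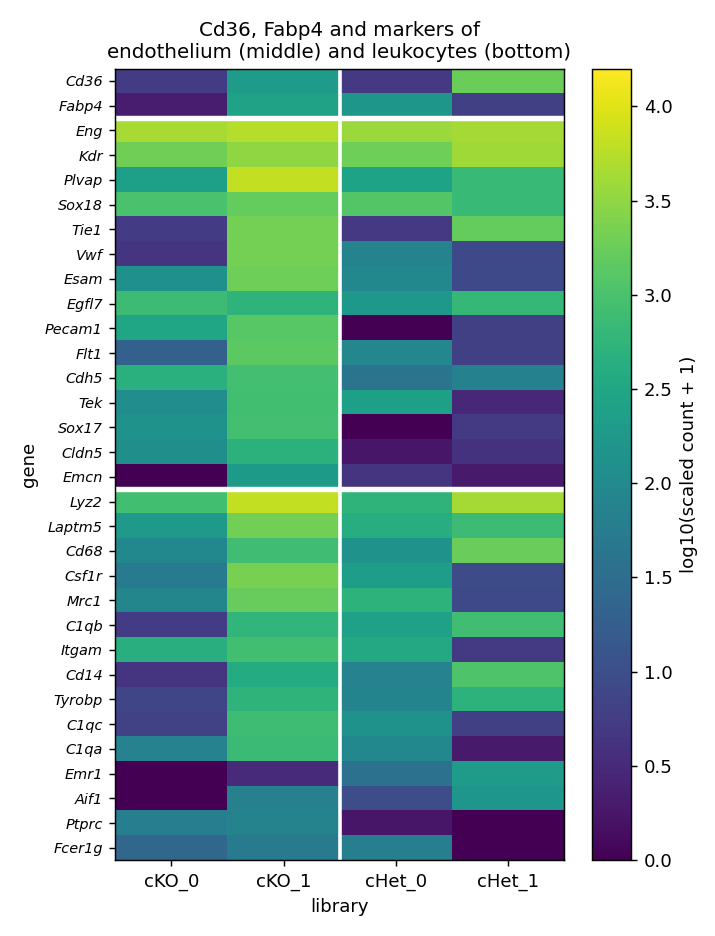
Level of Cd36 and Fabp4 (top), 15 endothelial markers (middle) and 15 macrophage and leukocyte markers (bottom, Adgre1 under its older symbol Emr1) in each library, as log10(scaled count + 1), cKO libraries on the left. Summed over each list, marker levels were highest in cKO_1, and Cd36 was above 100 in cKO_1 and cHet_1 only.

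Plin1 (chromosome 7, 79720218 to 79732903, minus strand), which coats the lipid droplet of fat cells, was listed at 0 in both cKO libraries and at 15.4 and 0 in cHet. Adipoq (chromosome 16, 23146536 to 23158028, plus strand), the adipocyte hormone adiponectin, was listed at 51.7 and 0 in cKO and at 0.81 and 0 in cHet. Each had a value above 10 in 1 library, of opposite genotypes, and neither entered the test. On the same reading of depth, a value of 0 allows up to 3 counts, a scaled count of 2.43 to 3.40 depending on the library, which covers counting error only.

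The wider programme of mature fat cells was listed at 0 in part and present in part. Of 27 genes of mature adipocytes, Plin1 and Adipoq among them, 6 were listed at 0 in all 4 libraries: Lep (the hormone leptin), Cfd (adipsin), Retn (resistin), Plin4 and Plin5 (lipid droplet coats) and Ucp1 (the uncoupling protein of brown fat). Of all 23107 genes, 6580 were likewise at 0 in all 4 libraries, so zeros were not particular to this list. Genes of triglyceride synthesis and breakdown that many cells use were present throughout, among them Bscl2 (seipin), at 3867 and 3824 in cKO and 4617 and 1501 in cHet, and Pnpla2 (adipose triglyceride lipase), at 1926 and 1852 in cKO and 1878 and 1034 in cHet. Others were near 0 in some libraries and present in others. Cidec was at 2.15 and 202 in cKO and at 0.81 and 1.05 in cHet. Gpd1 was at 1.08 and 318 in cKO and at 0 and 2.09 in cHet, and neither entered the test. Adrb3 was highest in cHet_0, at 21.5 and 3.40 in cKO and at 201 and 1.05 in cHet.

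Of the 15 genes of that list tested, 0 passed in either direction; 9 had higher and 6 lower values in cKO, and their median log2 fold change of 0.55 was 0.01 without cHet_1, 1.36 without cHet_0, 1.003 without cKO_0 and -0.34 without cKO_1. The lowest limma p belonged to Agpat2, an acyltransferase of triglyceride synthesis, listed at 1656 and 2614 in cKO and 1314 and 228 in cHet. Next came Lpin1, a phosphatidate phosphatase, listed at 1282 and 1796 in cKO and 1768 and 5850 in cHet. Acsl1, an acyl-CoA synthetase, was listed at 1256 and 1269 in cKO and 1687 and 15.7 in cHet, and Lipe, hormone-sensitive lipase, at 852 and 1883 in cKO and 747 and 410 in cHet. In all 4 of these genes cHet_1 was the lowest or the highest library.

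**Figure D3:**
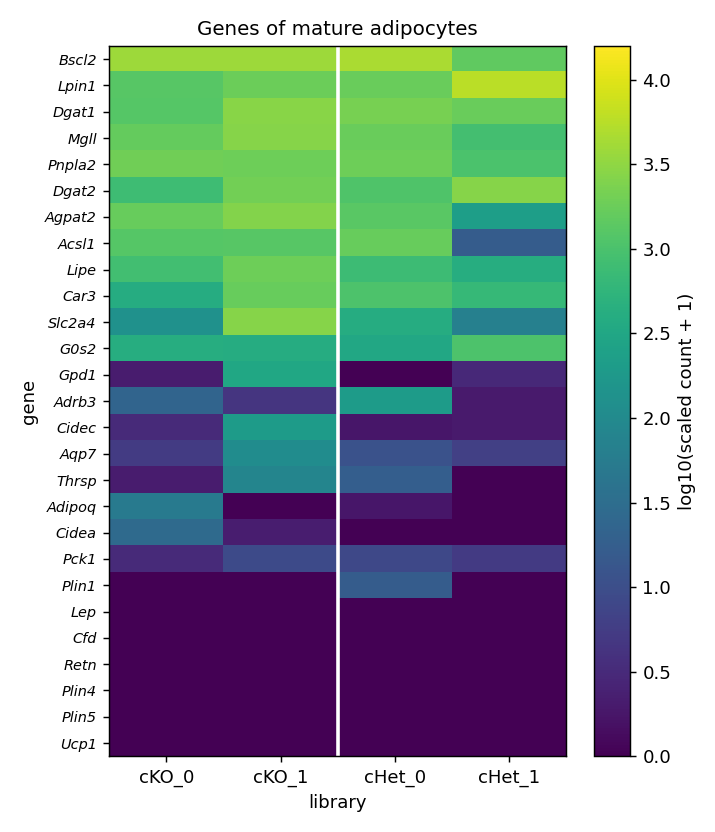
Level of 27 genes of mature adipocytes in each library as log10(scaled count + 1), ordered by mean level, cKO libraries on the left. Genes from Bscl2 down to G0s2 had a value of 15.7 or more in every library, and the bottom 6 genes, Lep to Ucp1, were listed at 0 in all 4.

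The size of each difference was compared with the spread inside the genotypes. Libraries of the same number, which the labels do not pair, gave opposite signs for 7 of the 8 tested genes. The same share over all genes tested is not given here. For Zfp423 and Cd36 the number 0 difference was close to 0, at -0.006 and 0.05. Pparg was lower in cKO for both numbers, with differences of -2.88 (number 0) and -3.74 (number 1) log2 units. Its lack of overlap fixes both signs. For Lpl the 2 differences were 0.13 and -0.07, for Cebpd -0.04 and 0.64, for Cebpb -0.58 and 0.31, and for Cebpa 0.21 and -0.57.

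**Figure D4:**
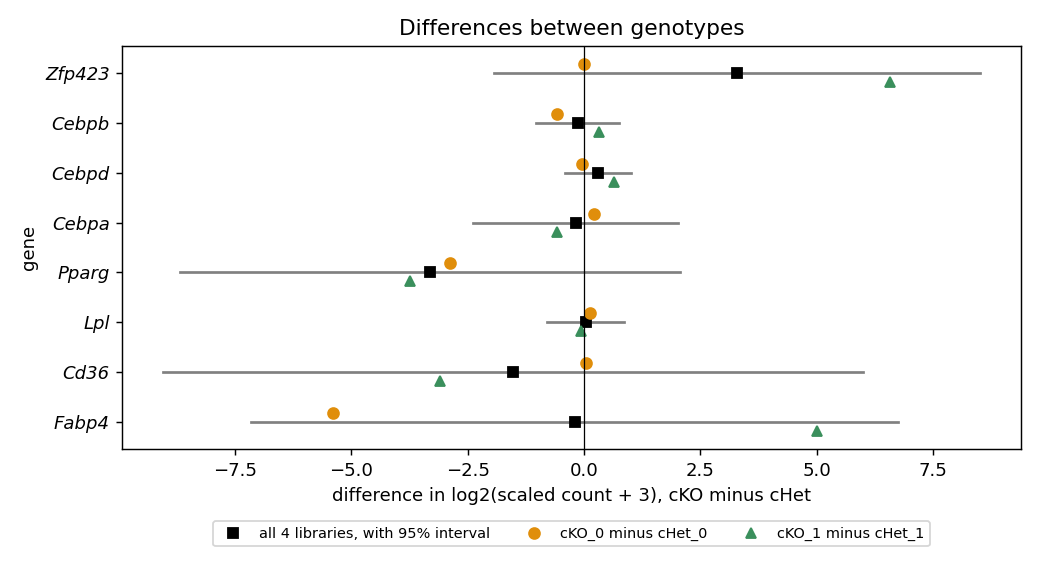
Difference between genotypes, cKO minus cHet, in log2(scaled count + 3) for the 8 tested genes: squares with bars give limma's estimate and its 95% interval, circles cKO_0 minus cHet_0 and triangles cKO_1 minus cHet_1. Every interval includes 0; those of Lpl, Cebpd and Cebpb are the narrowest, and those of Cd36 and Fabp4 the widest.

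The authors' 2 measures gave different orders of the libraries for Lpl, Cebpb and Cebpd and the same order for Cebpa, which was at 4.81 and 5.85 FPKM in cKO and at 3.98 and 8.88 FPKM in cHet. Lpl, level in scaled counts, was at 16.0 and 4.76 FPKM in cKO and at 15.3 and 4.16 FPKM in cHet. Cebpb went the other way, at 49.6 and 183 FPKM in cKO and at 67.5 and 184 FPKM in cHet. Cebpd was at 107 and 106 FPKM in cKO and at 109 and 65.3 FPKM in cHet. The FPKM given per scaled count, relative to cHet_0, was 0.962 in cKO_0, 0.321 in cKO_1 and 0.268 in cHet_1 for Lpl, against 1.10, 2.24 and 2.79 for Cebpb and 1.04, 0.962 and 0.983 for Cebpa. Over 9933 genes at 100 or more in every library, and after each library's median was removed, this conversion differed between cKO_0 and cHet_0 by a median of 0.03 log2 units and between cKO_1 and cHet_1 by 0.09, against 0.48 to 0.59 between libraries of different numbers. The number in the column name therefore marks a difference in the FPKM values that crosses the genotypes, and the labels do not say what it stands for. No log2 fold change of the 8 genes changed sign between scaled counts and FPKM.

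**Figure D5:**
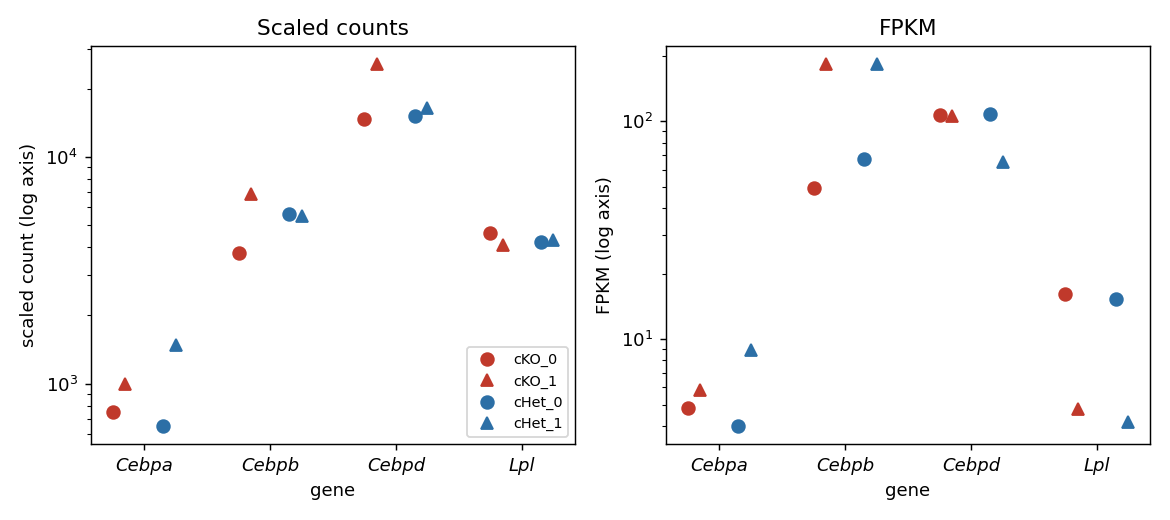
Scaled counts (left) and FPKM (right) of Cebpa, Cebpb, Cebpd and Lpl in each library, on log axes, cKO in red left of cHet in blue, circles for number 0 and triangles for number 1. Lpl lay level in scaled counts and split by number in FPKM, and Cebpb split by number in the opposite direction.

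Other regulators of fat-cell differentiation were present, and none passed the test. Of 29 tested adipogenic regulators outside the 10 genes, 0 passed; 15 had higher and 14 lower values in cKO, and the median log2 fold change was 0.004, or -0.10 with median-of-ratios rescaling. Rxra, the partner receptor of PPAR gamma, was listed at 11658 and 12782 in cKO and at 8905 and 5771 in cHet, without overlap (log2 fold change 0.77, SE 0.31, limma adjusted p = 0.913). Creb1, which activates Cebpb, was listed at 4249 and 3916 in cKO and at 5778 and 9032 in cHet, again without overlap (log2 fold change -0.82, SE 0.36, limma adjusted p = 0.913). Zfp467, a zinc finger gene reported to favour fat over bone, was listed at 4190 and 2683 in cKO and at 1983 and 968 in cHet. Egr2, an early factor that also marks Schwann cells, was listed at 2565 and 8051 in cKO and at 2040 and 2113 in cHet; the 8 Schwann cell markers, Egr2 included, summed to 9795 and 31104 in cKO and to 5479 and 2803 in cHet. Of the 29, 5 had both cKO values above both cHet values and 2 had both below, where 18% of all genes tested lay higher and 14.2% lower.

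Of 20 tested genes that restrain adipogenesis, 17 had higher values in cKO (85.0%, against 56.3% of all genes tested) and 0 passed. Their median log2 fold change was 0.28, between 0.17 and 0.54 over the alternatives, and 6 of the 20 had both cKO values above both cHet values and 0 had both below, where 18% of all genes tested lay higher and 14.2% lower. Klf2, a Kruppel-like factor that is also an immediate early gene, was listed at 20760 and 30958 in cKO and at 16781 and 12010 in cHet. Gli1, the hedgehog effector, was listed at 6388 and 6955 in cKO and at 4132 and 3350 in cHet. Gli1 belongs to the targeted pathway itself and is counted among both the 17 and the 6. The list was chosen with earlier results of these data known, and its shares were not tested. Hes1, a Notch target, was listed at 5705 and 5426 in cKO and at 3922 and 537 in cHet. Zfp521, a zinc finger relative and antagonist of Zfp423, was listed at 5175 and 6028 in cKO and at 4271 and 2076 in cHet. In all 4 of these genes cHet_1 was the lowest library, and each had a limma adjusted p of 0.913.

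Markers of adipocyte progenitors gave 6 higher and 8 lower values among 14 tested, 0 past the threshold, with a median of -0.04 that was 0.10 without cHet_1 and -0.30 without cHet_0. Dpp4, which marks interstitial progenitors of fat depots, was listed at 0 in all 4 libraries. Cd24a, a marker of early fat progenitors that dental epithelium also expresses, was listed at 6637 and 8094 in cKO and at 14327 and 18334 in cHet (log2 fold change -1.14, SE 0.28, limma adjusted p = 0.913). Epcam, an epithelial adhesion gene, was at 621 and 1002 in cKO and at 4828 and 2448 in cHet. It was the only 1 of the 12 dental epithelium markers with both cKO values below both cHet values, and 0 had both above. Of these 12 markers, 6 were higher and 6 lower, and the middle of their log2 fold changes lay at 0.01. The summed epithelial list, led by the enamel genes Amelx and Ambn, had the values given above. The part of epithelial cells in the Cd24a values was not tested. Cxcl12, a chemokine of marrow stromal cells with adipogenic potential, was listed at 26385 and 17566 in cKO and at 12874 and 9025 in cHet (log2 fold change 0.998, SE 0.31, limma adjusted p = 0.913). Ly6a, the gene of Sca-1, was listed at 631 and 2870 in cKO and at 3070 and 5385 in cHet. Pdgfrb was listed at 24063 and 23555 in cKO and at 17720 and 17193 in cHet. In the list, 3 genes had both cKO values above both cHet values and 4 had both below, where 18% of all genes tested lay higher and 14.2% lower.

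Partners of Lpl and Cd36 in fatty acid uptake gave 9 higher and 8 lower values among 17 tested, 0 past the threshold. Their median of 0.14 turned to -0.43 without cKO_1, -0.11 without cHet_1 and -0.05 with log2(FPKM + 1). Vldlr, a receptor for triglyceride-rich lipoproteins, was listed at 9460 and 7623 in cKO and at 11118 and 18805 in cHet (log2 fold change -0.77, SE 0.33, limma adjusted p = 0.913). Acsl4 and Acsl3, acyl-CoA synthetases, were also lower in both cKO libraries, Acsl4 at 402 and 924 in cKO and 1154 and 6076 in cHet, and Acsl3 at 3683 and 4893 in cKO and 5158 and 8725 in cHet. Slc27a1, a fatty acid transporter, was listed at 4272 and 10308 in cKO and at 5479 and 1580 in cHet. Of the 17, 6 had both cKO values below both cHet values and 0 had both above, where 18% of all genes tested lay higher and 14.2% lower. Apoc2, the activator of lipoprotein lipase, was listed at 0 in all 4 libraries.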

How the data were processed

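Total RNA of sorted cells was amplified with the SMART-Seq v4 kit and made into libraries with Nextera XT, per the labels' protocols. The submitters' processing notes name HTSeq, DESeq2, Cuffdiff, Cufflinks, Bowtie2 (2.2.1), TopHat2 (2.0.13) and FastQC without their roles, and mm10 as the genome build. The main values are a signal unit, deposited as scaled counts, which the authors made by dividing gene counts by 1 factor per library; how the factor was set is not stated there. FPKM values, which the authors deposited as fragments scaled to transcript length and depth, were an alternative. In 4 other tables, 16 columns have names found in no label and were left out. Since columns are numbered from 0 and titles from 1, a column was tied to its group only.

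For the 14297 genes that reached a scaled count of 10 in 2 or more libraries, log2(scaled count + 3) was fitted on group alone in limma (3.58.1, under R 4.3.3), using its trended prior variance, and was tested on simulated data. Tests were two-sided, with Benjamini-Hochberg adjustment over all genes tested. The 10 genes and the 12 other lists (203 entries, all matched by symbol or a unique older symbol) were chosen with earlier results of these data known. From each list the text names up to 4 genes with the lowest limma p, for endothelial and leukocyte markers the most abundant one (Eng and Lyz2), and for Pparg the 5 genes of nearest pattern. Genes listed at 0 in every library, Bscl2 and Pnpla2, Cidec, Gpd1, Adrb3, Cd68, C1qc, Pecam1, Vwf, Ptprc, Adgre1 and Epcam were named after their values were seen. Gene coordinates are from GENCODE vM21 for mm10, 1-based. Figures were drawn with matplotlib 3.10.9.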

Additional observations from a re-analysis of the deposited data

How the results depend on the processing

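With 2 libraries a group, intervals were wide; the effect of depth was not tested. Over all genes tested, 0 genes were called in either direction; this became 1 higher and 1 lower with log2(FPKM + 1) or log2(FPKM + 0.1), and between 0 and 1061 higher and between 0 and 78 lower when 1 library was left out, the most without cHet_0. Leaving out a library leaves a group with 1 library, which is assumed to vary like the others. Among the 10 genes, 0 were called higher except Zfp423 without cHet_0 (between 0 and 1 over the libraries left out), and 0 lower under any setting. The median of the 8 tested genes was -0.16 and lay between -0.47 and 0.50 when 1 library was left out. Pparg kept its sign in all 14 alternatives (-4.78 to -1.29). Since its groups did not overlap in scaled counts, that sign was fixed in advance for each pseudocount, filter, library left out and block there. Fabp4 was 0.065 with a pseudocount of 10 and Lpl -0.073 with median-of-ratios rescaling, both against the sign given; the cause was not tested. That rescaling moved the median of all genes from 0.12 to 0.02. Leaving out 1 library spanned -5.51 to 2.47 for Cd36, -0.77 to 0.41 for Cebpa, -0.57 to 0.30 for Cebpb, -0.11 to 0.70 for Cebpd, -3.21 to 2.80 for Fabp4, -0.053 to 0.117 for Lpl and -0.24 to 6.82 for Zfp423.

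The replicate numbers of the labels could not be used as a block, since columns were given no sample. A replicate block on the number in the column names, added after seeing the data, called 0 genes higher and 0 lower in scaled counts and 0 and 0 in log2(FPKM + 1), and left Pparg at -3.31 (limma adjusted p = 0.922). Deviations from the group mean correlated at 0.05 in scaled counts and 0.28 in FPKM between libraries of the same number, across 14297 genes. Count models were not run, since the usable tables hold no whole counts.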
